A study of Homo sapiens with 2 samples.

Results

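MHC class II expression was examined through 10 genes, the class II chains HLA-DRA, HLA-DPA1, HLA-DPB1, HLA-DQA1, HLA-DMA, HLA-DMB and HLA-DOA, the invariant chain CD74, and the regulators CIITA and RFX5. The genes were chosen by function with the AGS.W minus AGS.veh differences of these same arrays already known, so the values are a description. Each gene was read through the probe sets that the platform annotation assigns to it alone, which gave 25 probe sets for these 10 genes, of 54613 probe sets and 19775 genes in all. AGS.W was an AGS line, from a gastric adenocarcinoma, stably infected with a lentiviral vector carrying the WTX coding region and selected with puromycin. Its control, AGS.veh, was the AGS line that the labels name as negative control, and what vector it carried is not given in the sources read. Whether either line was a single clone is not stated. The measurement was 1 U133 Plus 2.0 array (Affymetrix) for either line. With 1 array per line no p-value or standard error could be given, and a difference is one between a pair of arrays.

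MHC class II molecules carry peptides from endosomes to the cell surface, where CD4 T cells read them. Each is a pair of an alpha and a beta chain that assembles on CD74, and HLA-DM (HLA-DMA with HLA-DMB) then exchanges the remnant of CD74 for a peptide, a step that HLA-DO restrains. CIITA is the co-activator that switches the class II genes on, without binding DNA itself. It is recruited to factors on a shared promoter module with an X box, which the RFX complex of RFX5, RFXAP and RFXANK binds, and a Y box, which NF-Y binds. Professional antigen-presenting cells express CIITA constitutively, whereas epithelial cells such as those of the stomach usually need interferon gamma for it.

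The promoter windows are shown because class II promoters are known for this module. RefSeq promoters of GRCh38.p14, 250 bases before to 50 after the start of a gene, were at hand for 8 of the 10 genes, not for HLA-DRA or CIITA. Each window runs from 140 to 41 bases before the start. Capitals mark matches to CCAAT, the core of the Y box, AGNAAC, letters found in the X box, and TGATGA, letters beside it, each on either strand, so that CCAAT also appears as ATTGG.
HLA-DMA: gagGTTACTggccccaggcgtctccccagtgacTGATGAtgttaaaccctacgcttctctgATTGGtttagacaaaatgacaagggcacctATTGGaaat
HLA-DMB: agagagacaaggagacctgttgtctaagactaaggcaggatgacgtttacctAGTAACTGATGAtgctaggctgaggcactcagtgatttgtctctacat
HLA-DOA: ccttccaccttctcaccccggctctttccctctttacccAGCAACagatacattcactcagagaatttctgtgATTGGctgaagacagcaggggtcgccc
HLA-DQA1: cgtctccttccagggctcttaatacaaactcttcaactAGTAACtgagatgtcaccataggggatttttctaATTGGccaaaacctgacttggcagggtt
HLA-DPA1: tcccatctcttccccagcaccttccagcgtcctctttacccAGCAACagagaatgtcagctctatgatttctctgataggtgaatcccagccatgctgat
HLA-DPB1: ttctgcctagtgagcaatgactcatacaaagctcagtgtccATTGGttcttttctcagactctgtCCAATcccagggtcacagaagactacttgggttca
CD74: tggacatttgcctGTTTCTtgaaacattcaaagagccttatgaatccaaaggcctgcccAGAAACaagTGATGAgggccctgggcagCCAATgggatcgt
The window of HLA-DMA was chr6:32953138-32953237, minus strand. The window of HLA-DMB was chr6:32941069-32941168, minus strand. The window of HLA-DOA was chr6:33009632-33009731, minus strand. The window of HLA-DQA1 was chr6:32637266-32637365, plus strand. The window of HLA-DPA1 was chr6:33073690-33073789, minus strand. The window of HLA-DPB1 was chr6:33075850-33075949, plus strand. The window of CD74 was chr5:150412951-150413050, minus strand. HLA-DPA1 and RFX5 have further promoter entries, and the one of HLA-DPA1 shown is that with a match in the window.

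The letters were chosen after these promoters had been seen, and a match is a description of a stretch of sequence. The 8 genes have 11 promoter entries, of which 7 held CCAAT and 9 held AGNAAC. Of 35116 promoters of the same length, 34.6% held CCAAT and 42.4% AGNAAC. Counted by gene, with a match in any of its entries, CCAAT was found for 7 of the 8, AGNAAC for 7 and TGATGA for 4, and 10.9% of single promoters held TGATGA. HLA-DOA and HLA-DQA1 had AGNAAC followed by ATTGG at a distance of 34 bases in each, and 0.177% of all promoters had this order at 30 to 36 bases. The neighbouring genes HLA-DMA and HLA-DMB both hold TGATGA, and in the window shown HLA-DMA has ATTGG while HLA-DMB has none.

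The class II genes lay on both sides of the array median, and most of their probe sets were dim. The median log2 signal over all probe sets was 4.02 in AGS.W versus 4.03 in AGS.veh, and a signal below it may be background. Of the 25 probe sets, 10 in AGS.W and 8 in AGS.veh reached this median. On both arrays 15 lay below it, as did 26109 of all 54613 probe sets. Taking for each gene its brightest probe set, by mean signal, 6 of the 10 genes reached the median in AGS.W and 5 in AGS.veh. On at least 1 array 6 of the 10 reached it, against 64.8% of all genes, so this count did not stand apart. HLA-DRA was the gene above the median in AGS.W and below it in AGS.veh. CIITA, HLA-DPA1, HLA-DPB1 and HLA-DQA1 were below it on both arrays.

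**Figure D1:**
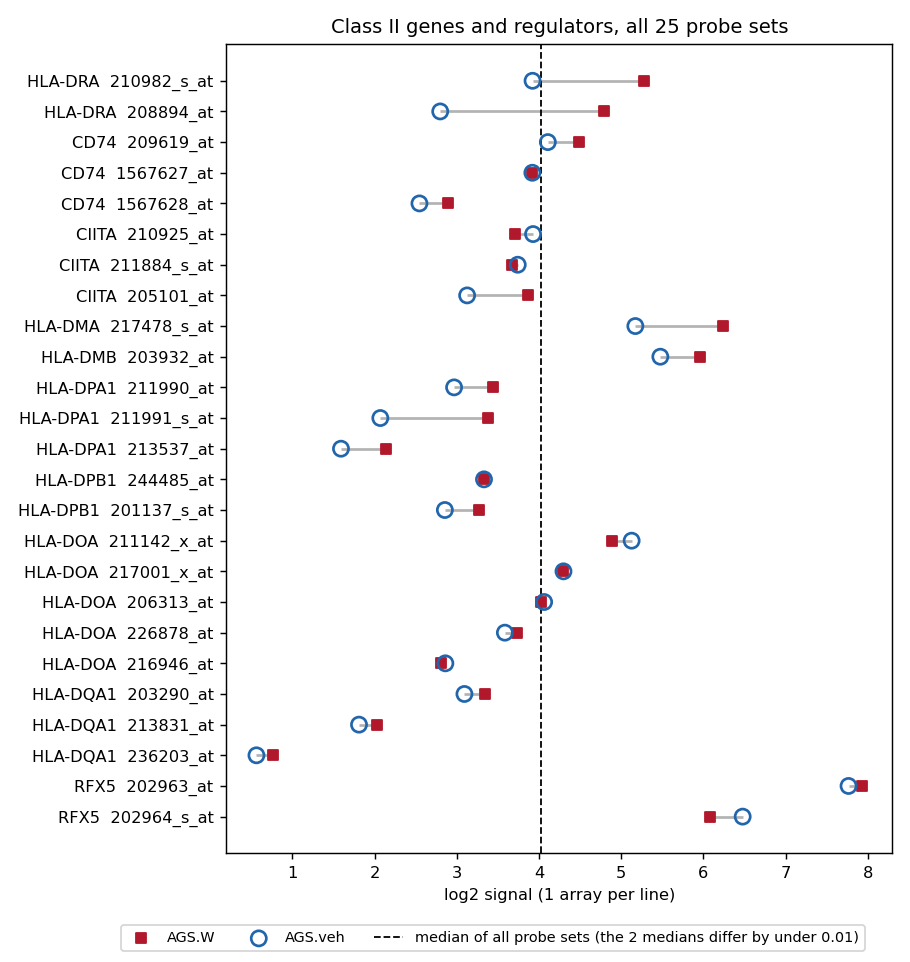
Log2 signal (horizontal axis) of all 25 probe sets in AGS.W (filled squares) and AGS.veh (open circles), 1 array each, with the median of all probe sets as a dashed line. The squares of HLA-DRA lie to the right of the line and its circles to the left, whereas both symbols of every CIITA probe set lie to the left.

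HLA-DRA and HLA-DMA were at least 2-fold higher in AGS.W, and none of the 10 genes was 2-fold lower. Over all genes, 1.22% passed 2-fold on the higher side and 1.35% on the lower side. Among the 12811 genes at or above the median on at least 1 array these shares were 1.83% and 1.94%, and 6 of the 10 genes were among these. Of the 10 genes, 7 were higher in AGS.W, 2 lower and 1 equal, with a median log2 difference of 0.32, where AGS.veh was subtracted from AGS.W. Over all genes 44.7% were higher in AGS.W and 45.1% lower, and the median was 0.00. Counted as probe sets, 16 of the 25 were higher, 6 lower and 3 equal, where 44.5% of all probe sets were higher and 42.9% lower. Of the 25, 4 were at least 2-fold higher, where 1.07% of all probe sets passed 2-fold on the higher side and 1.12% on the lower side. Since the genes were picked with these differences known, nothing is read from the gap between their shares and those of all genes.

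**Figure D2:**
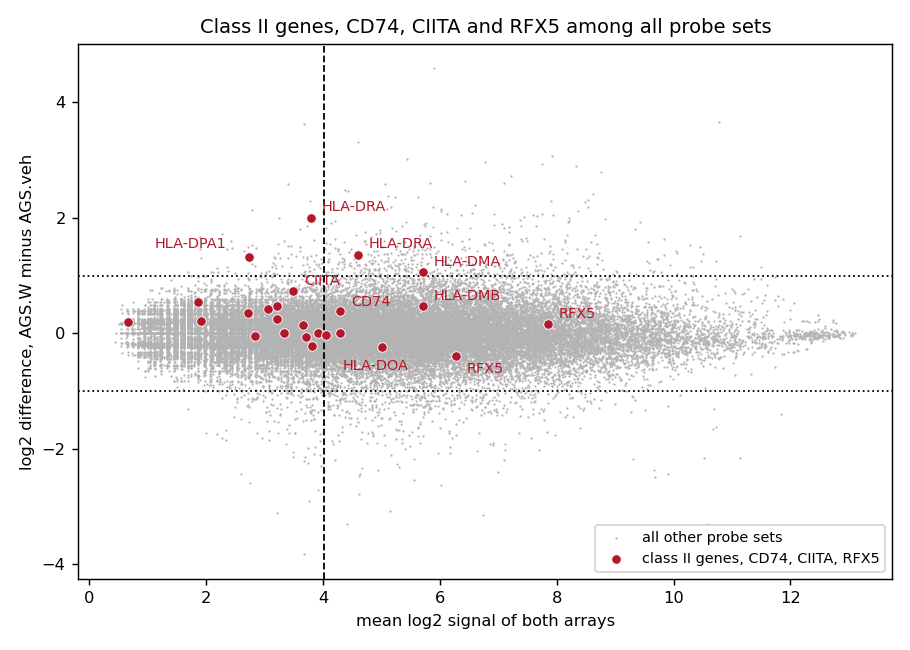
Log2 difference, AGS.W minus AGS.veh (vertical axis), against the mean log2 signal of both arrays (horizontal axis) for all probe sets (grey) and the 25 probe sets of the class II genes, CD74, CIITA and RFX5 (red). Dotted lines mark 2-fold and the dashed line the array median. The 2 HLA-DRA probe sets, HLA-DMA and 1 of HLA-DPA1 lie above the upper dotted line, and the last of these is left of the median.

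HLA-DRA encodes the alpha chain of HLA-DR, the class II molecule that is usually the most abundant. Its _s_at probe set, the brighter, had a log2 signal of 5.28 in AGS.W against 3.92 in AGS.veh, a difference of 1.36 or 2.56-fold. Its _at probe set had 4.80 in AGS.W against 2.80 in AGS.veh, which was 3.99-fold higher. Both probe sets thus had the same direction, and both were under the median in AGS.veh, at -0.11 for the _s_at and -1.23 for the _at probe set relative to it on the log2 scale. With the AGS.veh signal set to the array median, HLA-DRA was 2.38-fold higher on the _s_at probe set and 1.70-fold higher on the _at probe set. The size of the difference therefore had no firm value, and on the _at probe set the recomputed value was below 2-fold.

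The partners of HLA-DRA differed less. HLA-DRB1, the main beta chain, had 4.86 in AGS.W against 4.60 in AGS.veh on its 1 probe set, an _x_at type that can match several transcripts. Its difference was 0.26. HLA-DRB4, present in only some haplotypes, was below the median on all 3 of its probe sets, at 3.54 in AGS.W against 3.15 in AGS.veh on the brightest. A further 6 probe sets are assigned to several class II genes at once and were not given to any gene. Their differences ran from -0.30 to 0.84, with 5 higher and 1 lower in AGS.W and 0 at least 2-fold apart. Of the 6, 2 reached the median on at least 1 array, and both were higher in AGS.W. One had 5.19 in AGS.W against 4.35 in AGS.veh, which gave the 0.84, and the other 5.39 in AGS.W against 5.10 in AGS.veh. The probe set with -0.30 was below the median, at 1.34 in AGS.W against 1.63 in AGS.veh.

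HLA-DPA1 and HLA-DPB1, the chains of HLA-DP, were dim in both lines. HLA-DPA1 was higher in AGS.W on all 3 probe sets, at 3.44 in AGS.W against 2.97 in AGS.veh on the brightest. On its _s_at probe set it had 3.38 in AGS.W against 2.07 in AGS.veh, a difference of 1.32, and on its dimmest it had 2.13 in AGS.W against 1.59 in AGS.veh. All of these signals were under the array median, so no fold is given for HLA-DPA1. HLA-DPB1 had 3.33 on both arrays on its _at probe set, and 3.27 in AGS.W against 2.85 in AGS.veh on its _s_at probe set. No HLA-DP probe set therefore gave a difference with a measured level on either side.

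HLA-DQA1, the alpha chain of HLA-DQ, was below the median on all of its probe sets, with the lowest probe set at -3.26 in AGS.W against -3.46 in AGS.veh relative to it. Its 3 probe sets had 3.34, 2.03 and 0.76 in AGS.W against 3.09, 1.81 and 0.56 in AGS.veh. Their differences, of 0.20 to 0.25, all lay between signals that may be background. The partner gene HLA-DQB1 had 4.25 in AGS.W against 4.49 in AGS.veh on its brightest probe set, of the _x_at type. Its 7 probe sets went in both directions, from -0.31 to 0.57. The probe sets at both ends of this range were below the median on both arrays.

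HLA-DMA, the alpha chain of the peptide exchanger HLA-DM, passed 2-fold with both of its signals above the median. It had 6.24 in AGS.W against 5.17 in AGS.veh, or 2.22 and 1.15 above the median of its array, a difference of 1.07 or 2.10-fold. It was read by a single probe set, of the _s_at type, so no other probe set bears on it. Its partner HLA-DMB had 5.95 in AGS.W against 5.48 in AGS.veh, a difference of 0.48 or 1.39-fold, also on a single probe set. Both chains of HLA-DM were thus above the median and higher in AGS.W, and HLA-DMA passed 2-fold.

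HLA-DOA, a chain of the HLA-DM inhibitor HLA-DO, had no such difference. On its brightest probe set, of the _x_at type, it had 4.89 in AGS.W against 5.13 in AGS.veh, a difference of -0.24. Its other 2 probe sets above the median had differences of 0.00 and -0.03, and over all 5 the range was -0.24 to 0.15. The one with 0.00 had exactly equal values on both arrays, as 6900 of all 54613 probe sets had. The other chain of HLA-DO, HLA-DOB, had 3.76 in AGS.W against 3.96 in AGS.veh, below the median on both arrays.

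CD74, the invariant chain, was close to the median. It had 4.49 in AGS.W against 4.11 in AGS.veh on its brightest probe set, a difference of 0.38 or 1.30-fold, and 3.92 on both arrays on the next. On its dimmest probe set it had 2.89 in AGS.W against 2.54 in AGS.veh. CD74 differed by less than 2-fold on each of its 3 probe sets, of which the brightest alone reached the median. CD74 and HLA-DRA are usually activated together by CIITA, and whether they were so here was not tested.

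CIITA itself did not reach the median in either line, and its probe sets went in both directions. On the probe set that differed most it had 3.86 in AGS.W against 3.12 in AGS.veh, a difference of 0.74. On its brightest it had 3.71 in AGS.W against 3.93 in AGS.veh, a difference of -0.22, and on its _s_at probe set 3.67 in AGS.W against 3.74 in AGS.veh, a difference of -0.07. The mean over the 3 probe sets differed by 0.15. A difference in CIITA was therefore not measurable on these arrays, which does not show that its level was the same.

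RFX5, which encodes the DNA-binding subunit of the RFX complex, was above the upper quartile of both arrays on its 2 probe sets. It had 7.93 in AGS.W against 7.77 in AGS.veh on its _at probe set, a difference of 0.17, and 6.08 in AGS.W against 6.48 in AGS.veh on its _s_at probe set, a difference of -0.40. Both probe sets were well above the median and disagreed in direction, and the mean over them differed by -0.12. The other subunits were lower in AGS.W on their brightest probe sets. RFXANK had 7.21 in AGS.W versus 7.63 in AGS.veh, and RFXAP 4.12 in AGS.W against 4.45 in AGS.veh.

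A list of the other RFX complex subunits, NF-Y, CREB1 and further RFX family members, which are relatives of RFX5 and not known class II factors as a group, was for the most part lower in AGS.W, and none was 2-fold apart on its brightest probe set. RFX5 itself is not in it. Of its 12 measured genes, 10 passed the signal filter of the median on at least 1 array, with 2 higher and 8 lower and a median difference of -0.37. The 9 that reached the median on both arrays, which leaves out RFX3, had a median difference of -0.33. Over all genes that passed the filter on at least 1 array the median was -0.01. Of all genes 64.8% passed it and 45.1% were lower. CREB1, which binds beside the X box, had 5.38 in AGS.W against 5.92 in AGS.veh. Of the NF-Y subunits, NFYC had 5.99 in AGS.W against 6.48 in AGS.veh, NFYA 5.70 in AGS.W versus 5.95 in AGS.veh, and NFYB 6.62 in AGS.W against 6.56 in AGS.veh. RFX3, a relative of RFX5 with a role in cilia, passed the filter through AGS.veh, at 3.48 in AGS.W against 4.32 in AGS.veh on its brightest probe set. With the AGS.W signal at the array median the RFX3 difference was -0.30, and on another probe set, at 2.36 in AGS.W against 4.10 in AGS.veh, it was -0.08. With each gene as the average of its probe sets, the median over the same 10 genes was -0.19, and -0.09 with the filter set on those averages.

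The genes that induce or repress CIITA went in both directions. Since the list mixes inducers with repressors, its median does not describe the input to CIITA. Of 16 measured, 10 passed the filter, with 1 at least 2-fold higher, 1 at least 2-fold lower and a median difference of -0.04. IFNG, the inducing cytokine, had 2.23 on both arrays, below the median. Its receptor genes were well above it, at 6.70 in AGS.W against 6.64 in AGS.veh for IFNGR1 and 8.20 in AGS.W against 8.46 in AGS.veh for IFNGR2. The kinase JAK1 had 8.36 in AGS.W versus 8.90 in AGS.veh, and the transcription factor IRF1, which acts on a CIITA promoter, 6.44 in AGS.W against 6.71 in AGS.veh. The kinase JAK2 had 3.11 in AGS.W against 2.76 in AGS.veh, below the median.

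PRDM1 and SOCS3 were the 2 genes of this list past 2-fold. PRDM1 (Blimp-1), a repressor of CIITA in plasma cells, had 5.20 in AGS.W against 6.42 in AGS.veh on its brightest probe set, a difference of -1.22. Its other 2 probe sets, also above the median, had differences of 0.06 and 0.02, so its direction rested on 1 of 3 probe sets. SOCS3, an inhibitor of cytokine signalling, had 6.98 in AGS.W against 5.77 in AGS.veh on its brightest probe set, a difference of 1.21. Its other 3 probe sets had 0.55, 0.45 and -0.24, so that its direction was shared by 3 of 4. SOCS1, the related inhibitor of interferon gamma signalling, had 4.24 in AGS.W against 4.32 in AGS.veh on its brightest probe set, and its other 3 probe sets had differences of 0.24, 0.22 and 0.18.

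**Figure D3:**
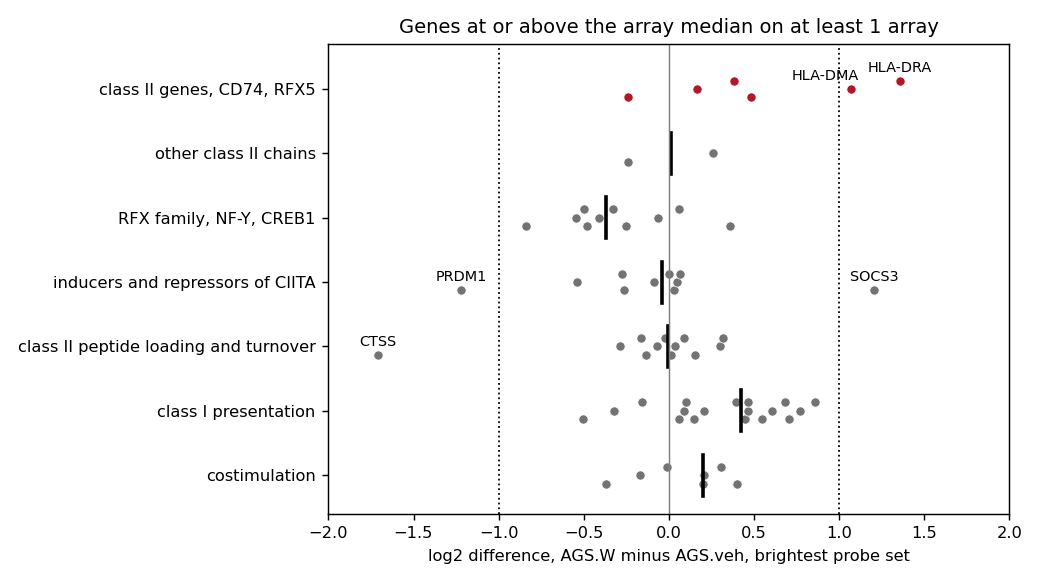
Log2 difference, AGS.W minus AGS.veh (horizontal axis), of each gene at or above the array median on at least 1 array, by its brightest probe set, in 7 gene groups. Points are genes, black bars are group medians, dotted lines mark 2-fold and genes past it are named. The class II genes with CD74 and RFX5 have no bar, since HLA-DRA passed only through AGS.W. The bar of class I presentation stands at 0.42 and that of the RFX family, NF-Y and CREB1 at -0.37. The bar at -0.37 includes RFX3, which passed only through AGS.veh.

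Of the genes for peptide loading and turnover of class II molecules, CTSS stood apart, on the lower side. CTSS encodes cathepsin S, the protease that trims CD74 in antigen-presenting cells. It had 4.67 in AGS.W against 6.38 in AGS.veh on its brightest probe set, a difference of -1.71, or 3.27-fold higher in AGS.veh. On the next it had 4.09 in AGS.W versus 5.59 in AGS.veh, and on the last, of the _x_at type and below the median, 1.76 in AGS.W against 2.17 in AGS.veh. All 3 probe sets had the same direction. The other 11 genes of this list that passed the filter were less than 2-fold apart. The median difference of all 12 genes that passed, with CTSS among them, was 0.00.

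Class I presentation, which the interferon response often raises together with class II, was for the most part higher in AGS.W, by less than 2-fold on the brightest probe set of each gene. Of 20 measured genes 18 passed the filter, with 15 higher and 3 lower and a median difference of 0.42. Without the filter the median over the 20 was 0.30. Of all genes 64.8% passed the filter and 44.7% were higher, and over all genes that passed it the median was -0.01. The heavy chains had the largest differences, at 10.04 in AGS.W against 9.18 in AGS.veh for HLA-F, 10.3 in AGS.W against 9.54 in AGS.veh for HLA-G, and 11.6 in AGS.W against 10.8 in AGS.veh for HLA-B. All 17 probe sets of 5 heavy chain genes were higher, by 0.58 to 1.58, but 15 of the 17 are of the _x_at type and may read each other's transcripts. The probe set with 1.58, the 1 of the 17 past 2-fold, was an _at probe set of HLA-F, at 6.19 in AGS.W against 4.61 in AGS.veh. NLRC5, the class I counterpart of CIITA, had 5.71 in AGS.W against 6.03 in AGS.veh, so its difference, -0.32, ran opposite to that of the heavy chains.

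Within the class II region, higher genes lay next to genes with little difference. RefSeq places 32 genes from HLA-DRA to HLA-DPB1 on chromosome 6, and 19 of them were measured by a probe set of their own. Of these 19, 12 were higher and 6 lower in AGS.W, where 44.7% of all genes were higher and 45.1% lower. The 19 include class II genes that were picked with these differences known, so nothing is read from this gap. Of the 19, 12 reached the median on at least 1 array, against 64.8% of all genes. The other directions lay between signals that may be background. HLA-DRA and HLA-DMA were past 2-fold. TAP1 and PSMB9, class I genes that share a promoter between them, were higher, at 8.11 in AGS.W against 7.65 in AGS.veh for TAP1 and 7.02 in AGS.W against 6.57 in AGS.veh for PSMB9. The neighbours TAP2 and PSMB8 had differences of -0.16 and 0.15, and the probe sets of TAP2 went in both directions. On the other side of HLA-DMA, BRD2, a chromatin reader that is not a presentation gene, had 9.31 in AGS.W against 9.10 in AGS.veh, followed by HLA-DOA with its difference of -0.24.

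**Figure D4:**
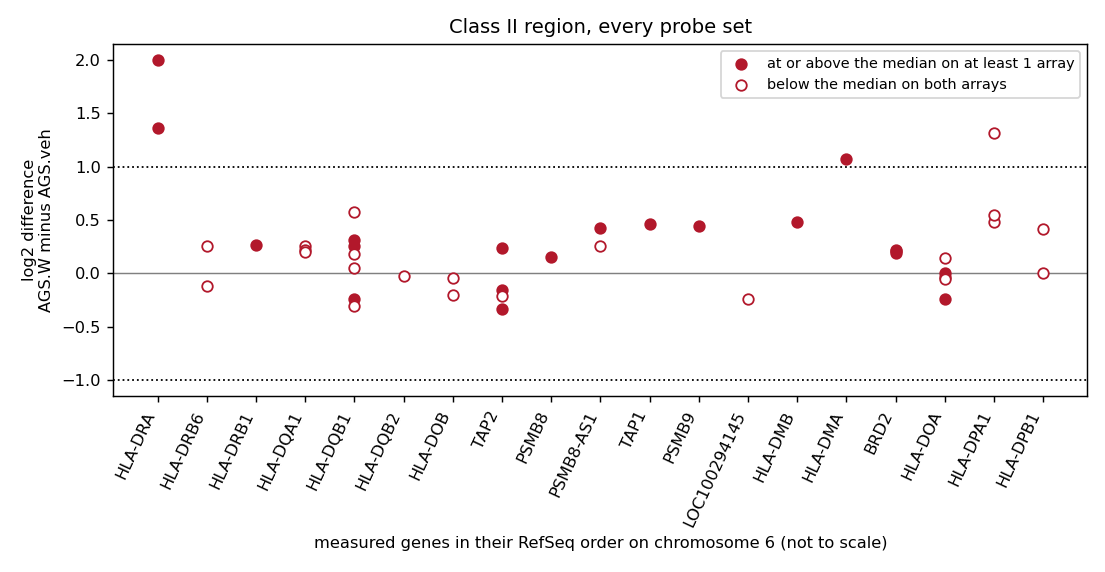
Log2 difference, AGS.W minus AGS.veh (vertical axis), of every probe set of the 19 measured genes from HLA-DRA to HLA-DPB1, in RefSeq order (horizontal axis, not to scale). Filled points were at or above the median of at least 1 array, open points on neither, and dotted lines mark 2-fold. HLA-DRA and HLA-DMA have the filled points above 1, and the open point above 1 belongs to HLA-DPA1.

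Markers of leukocytes, the cells that normally express class II genes at high level, were mostly dim. Of 14 measured, 10 were below the median on both arrays, and 22 of their 27 probe sets were. For comparison, 64.8% of all genes reached it on at least 1 array, and 26109 of all 54613 probe sets were below it on both. PTPRC (CD45), which marks all leukocytes, had no signal above 1.85 on any of its 5 probe sets. The B cell gene MS4A1 had 2.91 in AGS.W against 2.76 in AGS.veh on its brightest probe set, and the monocyte gene CD14 3.19 in AGS.W against 2.96 in AGS.veh. Of the 4 that reached the median, the B cell gene CD79A had 5.52 in AGS.W versus 5.48 in AGS.veh, and the T cell gene CD3E 4.39 in AGS.W against 4.42 in AGS.veh. The dendritic cell gene CD1C had 4.30 in AGS.W versus 4.03 in AGS.veh, and the B cell gene CD79B, which reached it in AGS.veh, 3.81 in AGS.W against 4.06 in AGS.veh. None of the 14 genes was 2-fold apart. Their median difference was 0.14, mostly between signals that may be background. It was 0.00 over the 4 that reached the median and 0.04 over the 3 that reached it on both arrays. The epithelial genes KRT8 and KRT18 were bright, at 9.76 in AGS.W against 10.1 in AGS.veh for KRT8 and 10.9 in AGS.W against 11.2 in AGS.veh for KRT18, while EPCAM had 6.88 in AGS.W against 5.96 in AGS.veh. Of 12 epithelial markers 8 reached the median on at least one of the arrays, and CDH1 (E-cadherin), KRT19, CLDN18 and TFF1 were below it on both, with CDH1 at 2.72 in AGS.W against 2.50 in AGS.veh. The extraction text of the labels names a brain tissue, where the cell line label names AGS. Of 9 measured brain markers 6 reached the median, at up to 7.06 in AGS.W versus 7.11 in AGS.veh, and 1 was 2-fold apart, the synaptic gene SNAP25, at 5.15 in AGS.W against 3.57 in AGS.veh. SNAP25 was below the median in AGS.veh on this probe set, and each of its other probe sets had a difference of 0.49. Over all genes 64.8% reached the median on at least one of the arrays, so neither the epithelial nor the brain count stood apart from it. The part of leukocyte or brain RNA in the class II differences was not tested. WTX itself (AMER1) had 3.70 in AGS.W against 3.86 in AGS.veh on its single probe set, below the median, and this probe set does not check the labels, since whether it lies in the coding region was not settled.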

How the data were processed

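RNA of AGS.W and AGS.veh was measured on U133 Plus 2.0 arrays, 1 for either line. The authors deposited log2 signals, 1 value for each probe set and array. The submitters' processing notes list RMA and MAS5 without role or version, so the background correction behind dim signals is unknown. The log2 scale was kept. After 62 control probe sets were left out, 41091 of 54613 probe sets had 1 gene in the platform annotation, 1801 had several and 11721 had none. Symbols were updated by gene identifier through RefSeq (GRCh38.p14). A gene was represented by its brightest probe set. The fold threshold of 2 is that of the study's methods. Their FDR was not used, since single arrays give no p-value. The number of arrays limits the precision.

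All probe sets of the 10 genes were described, and any gene of the lists of other class II chains, promoter factors and CIITA inducers and repressors with a probe set of its own could be named. Of each other list, the 3 genes with the largest difference and those past 2-fold could be named, and of cell markers PTPRC, MS4A1, CD14, EPCAM, KRT8 and KRT18. BRD2, AMER1, TAP1, TAP2, PSMB8, PSMB9, NLRC5, CD274, RFX5-AS1, CD79A, CD79B, CD3E, CD1C, CDH1, KRT19, CLDN18 and TFF1 were outside this rule and were named after their values were seen. The members and lists were chosen with earlier results of these data known. The steps were tested on simulated data. Alternatives were other scalings, other probe set summaries, signal filters and fold thresholds. Computations ran in Python 3.11.15 with pandas 2.3.3 and numpy 2.4.6, lowess curves came from statsmodels 0.14.6, and plots were drawn with matplotlib 3.10.9.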

Additional observations from a re-analysis of the deposited data

How the results depend on the processing

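No paired analysis was possible because AGS.W and AGS.veh had a single array apiece, and for the same reason no array was left out. Median centring, quantile normalization and a lowess curve moved no probe set of the 10 genes by more than 0.031 and turned none of their signs, so the counts past 2-fold stayed at 2 genes and 4 probe sets. With the dimmer signal set to the array median, 2 of the 4 probe sets stayed past 2-fold. Without _x_at and _s_at probe sets 1 gene of 9 did, because HLA-DMA was then not measured, and at a 3-fold threshold 0 did. With the probe set of largest difference, 3 genes passed 2-fold, where HLA-DPA1 joined through a probe set below the median, and the median of the 10 genes was 0.45. Of the 10 genes, 5 reached the median on both arrays, 3 as the mean of their probe sets, and 1 and 10 reached the upper and the lower quartile. The medians of 9 gene lists were recomputed 78 times in all, 59 of these lay within 0.1 of the value given, and scaling moved none by more than 0.030. All genes gave 241 higher and 267 lower past 2-fold, against 149 and 152 as the mean of probe sets and 385 and 418 by the largest difference. The other class II chains had no gene left to give a median without _x_at and _s_at probe sets. Adding an offset was not run, because the values were already log2. Without an array replicate the noise of a dim probe set is unknown.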

Other observations

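Exactly repeated differences were frequent among dim probe sets. Rounded to 6 decimals, the difference of 82.6% of the 26109 probe sets below the median on both arrays was shared with at least 10 other probe sets, against 25.8% of the 26115 at or above it on both. Of the 25 class II, CD74, CIITA and RFX5 probe sets, 12 had such a shared difference, and 11 of these 12 were below the median on both arrays. Exactly equal values on both arrays were found for 6900 of all 54613 probe sets. Among the 25 this held for 3, 1 each of CD74, HLA-DPB1 and HLA-DOA. The difference of the CIITA probe set with 0.74 was shared with 14 others, that of the brightest HLA-DPA1 probe set with 70 others and that of the HLA-DQA1 probe set with 0.22 with 371 others. The 2 probe sets of HLA-DRA shared theirs with 1 and 0 others, and those of HLA-DMA and HLA-DMB with 0. What in the processing made these repeats was not tested.

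Of the checkpoint and costimulatory genes, CD274 (PD-L1), which interferon gamma induces, had 3.78 in AGS.W and 2.59 in AGS.veh on one probe set, and 3.69 in AGS.W and 3.58 in AGS.veh on the other, all below the array median. Of 12 measured genes of that list 7 passed the signal filter, and 0 of these were 2-fold apart. Over all genes 64.8% passed it, with 1.83% of those at least 2-fold higher and 1.94% lower, so these counts did not stand apart. RFX5-AS1, the antisense neighbour of RFX5, had 3.93 in AGS.W and 4.42 in AGS.veh.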
